A study of Miniopterus schreibersii with 14 samples.

Results

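The digits that lengthen into the bat wing were compared with the digits of the same period that stay short. The comparison rests on 3 of the 14 autopod libraries (the autopod is the part of the limb that forms hand or foot) from embryos of the bent-wing bat Miniopterus schreibersii, all 3 from stages S15-17. FD holds forelimb digits II-V, FI holds forelimb digit I, the free thumb, and HD holds hindlimb digits I-V. A difference was counted only where FD lay on the same side of both FI and HD, among components whose score averaged 20 or more in these libraries. A component is an assembled transcript or a piece of one, and a score is the deposited normalized count, rounded to a whole number. Of 64618 components in the table, 16194 reached that mean, and they carried 98.5% of the score in the 3 libraries. Of these, 105 were at least 2-fold higher in FD than in both short-digit libraries and 157 at least 2-fold lower, 262 in all.

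The other libraries served to describe these components outside the comparison. At the same stages they are the interdigital tissue of the thumb side (FW, from digit I to digit II), of the wing (FF, from digit II to digit V) and of the foot (HW). At stage S14 they are anterior, middle and posterior parts of the forelimb bud (FA, FM, FP) and of the hindlimb bud (HA, HM, HP). From fetuses they are metacarpals II-V (FL) and metatarsals I-V (HS). No treatment or genotype is given for any library. Each part had 1 library. FD pools 4 digits and HD pools 5, with hindlimb digit I among them, and the stages of all 3 digit libraries span S15 to S17. How many embryos went into a library, and whether parts share an embryo, the labels do not state.

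Digits begin as rods of cartilage between patches of interdigital tissue, and lengthen as cartilage cells divide, stack and swell in growth zones near the joints. In bats the forelimb digits behind the thumb lengthen far more than the others, and the tissue between them persists as the wing membrane, while in the foot it regresses. Signals of the BMP, FGF and hedgehog families and the HOX transcription factors are known to shape these steps. The table names components only by assembly number, and none of them matched a gene in the reference list (0 matches among 22775 genes), so no component can be assigned to any of these pathways here, and the tissue labels could not be checked against marker genes.

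The digit libraries held 4550754 reads (FI), 5474111 reads (FD) and 5700318 reads (HD), as recovered from the scores, where 1 read was worth 2.14, 1.74 and 1.71 score units. FI was the shallowest of all 14 libraries. At an equal depth of 4550754 reads, 43277 components were detected in FD, 41178 in FI and 41139 in HD, against 44976 to 45879 in the 3 interdigital libraries. All ratios below come with exact 95% intervals on reads, which cover counting error only and say nothing about differences between embryos. With 1 library per part, a ratio compares libraries and has no replicate check.

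At least 4-fold above both short-digit libraries stood 4 components (0.0247% of those tested), and 12 at least 4-fold below (0.0741%). The widest difference was that of comp3957_c0. It scored 456 in FD, 28 in FI and 26 in HD, so that FD was 16.4-fold above FI (9.43 to 31.2) and 17.7-fold above HD (10.6 to 32.1). Both short-digit libraries were low and near each other. Component comp14349_c0 scored 170 in FD, 19 in FI and 3 in HD. FD was 8.87-fold above FI, with a lower limit of 4.48, and 49.7-fold above HD (13.4 to 417), the latter ratio resting on 2 reads in HD. Next came comp7027_c0, which scored 184 in FD, 11 in FI and 21 in HD, which is 17.3-fold above FI (7.17 to 54.3) and 8.97-fold above HD (4.93 to 17.9).

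These 3 components had like profiles over the remaining libraries. In the S14 buds comp3957_c0 scored 210, 537 and 450 in anterior, middle and posterior forelimb and 96, 298 and 226 in hindlimb. Component comp14349_c0 scored 100, 254 and 235 in the forelimb buds and 44, 123 and 115 in the hindlimb buds. Component comp7027_c0 scored 80, 333 and 249, then 96, 215 and 187, in the same order. In each of the 3, the FD score lay within the range of the 6 buds and both short-digit scores lay below it. The anterior part was the lowest of its bud in both limbs. The fourth component past 4-fold, comp11192_c0, is named because it completes this group of 4. It scored 96 in FD, 2 in FI and 17 in HD, and 107, 146 and 112 in the forelimb and 90, 98 and 64 in the hindlimb buds, so FD again lay within the bud range and the short digits below it. Between the digits it scored 117 in FF, 4 in FW and 7 in HW, and in the fetus 55 in metacarpals and 6 in metatarsals.

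**Figure D1:**
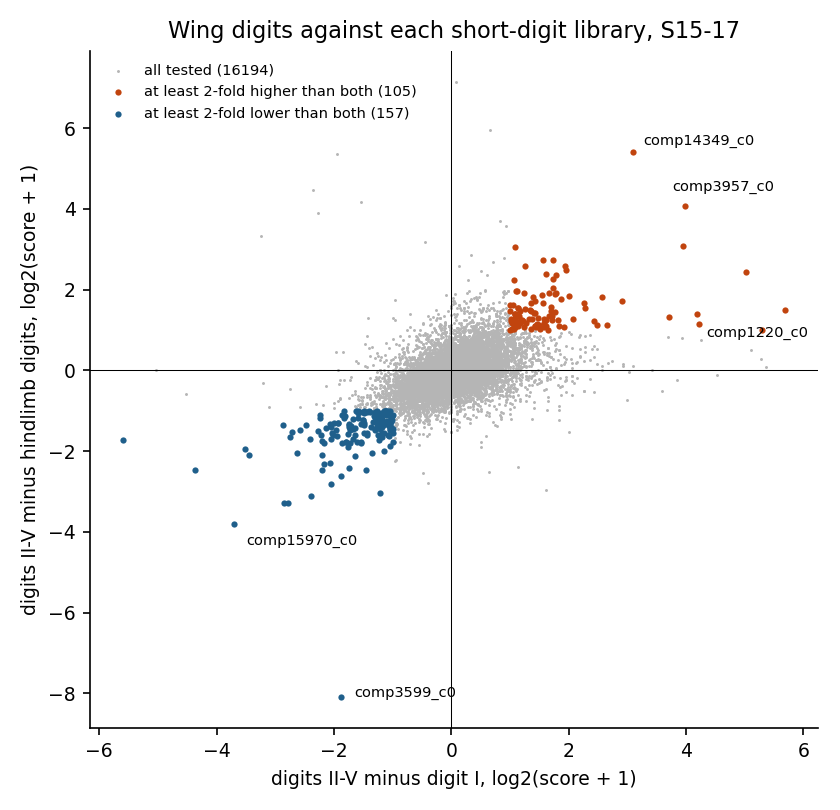
Differences of forelimb digits II-V from digit I (horizontal) and from hindlimb digits (vertical), both as log2(score + 1), for the 16194 components tested; 1 point per component. The 105 components at least 2-fold higher than both are orange and the 157 at least 2-fold lower are blue, and both axes share the FD library, so points near the diagonal are partly a product of that sharing.

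On the low side, the component farthest from both short digits was comp15970_c0, with 2 in FD, 38 in FI and 41 in HD. It held 1 read in FD, and FI was 22.1-fold above FD (3.49 to 921) and HD 23.6-fold (3.85 to 972). Component comp17986_c0 scored 3 in FD, 28 in FI and 38 in HD, on 2 reads in FD. FI was 7.98-fold above FD (1.81 to 72.9) and HD 10.8-fold, with a lower limit of 2.66. The lead of the low side thus rested on far fewer reads than that of the high side.

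Where the mean score reached 500, the wing digits stood apart less widely. Component comp6637_c0 scored 1169 in FD, 361 in FI and 421 in HD, 3.24-fold (2.73 to 3.86) and 2.77-fold (2.39 to 3.22) higher in FD. FD was above all 6 buds, which ran from 91 to 311, while FF at 545 lay between FW at 578 and HW at 283. Component comp1220_c0 scored 1978 in FD, 107 in FI and 754 in HD. It was 18.5-fold above FI (13.9 to 25.1) but 2.62-fold above HD (2.35 to 2.94), so the thumb was the low extreme. In the forelimb buds comp1220_c0 scored 520 in the anterior part, 4664 in the middle and 3908 in the posterior part.

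In the other direction, comp9041_c0 scored 184 in FD, 855 in FI and 622 in HD. FI was 4.63-fold (3.73 to 5.80) and HD 3.37-fold (2.71 to 4.23) above FD. The S14 buds scored 58 to 197, so FD stayed within the bud range and both short digits stood above it. Component comp3599_c0 scored 1636 in HD, 21 in FI and 5 in FD, and 1659 to 2097 in the hindlimb buds against 0 to 2 in the forelimb buds. FI was 4.09-fold above FD (1.05 to 23.2), on 3 reads in FD. Its place on this list thus joins a wide limb difference with a narrow thumb difference.

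**Figure D2:**
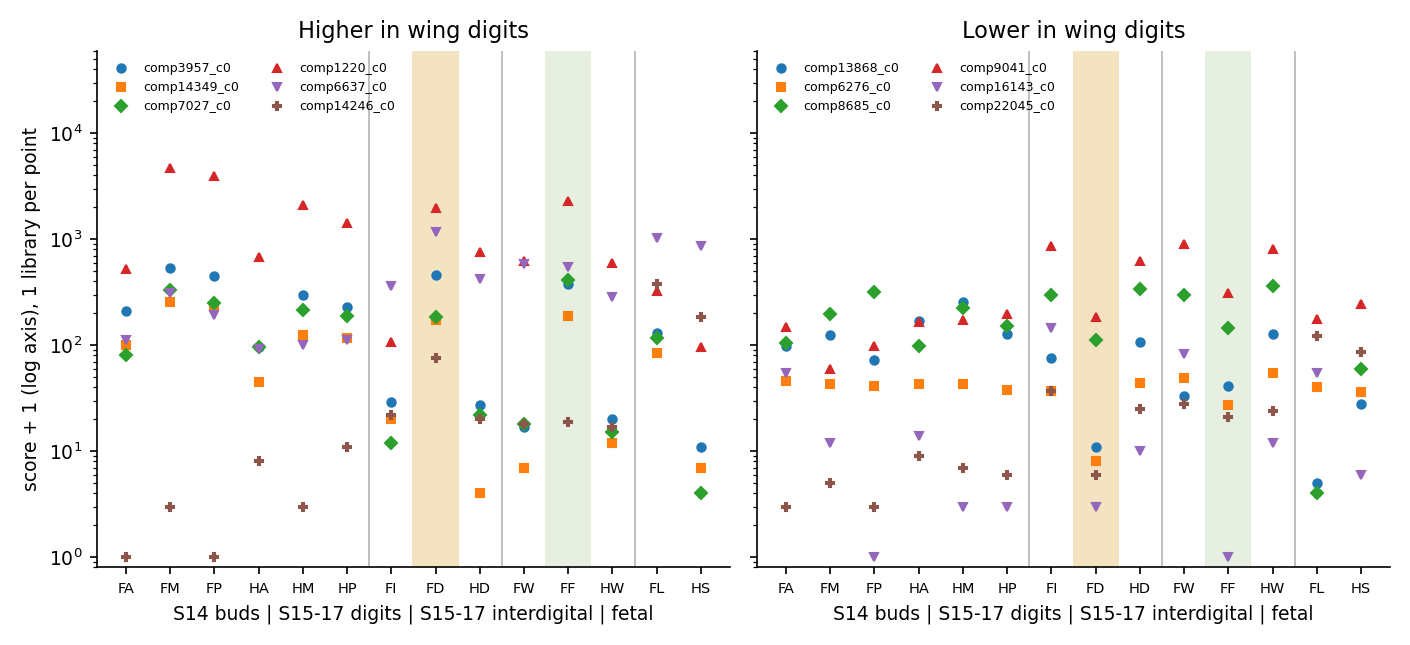
Scores plus 1, on a log axis, of 6 components higher and 6 lower in wing digits across all 14 libraries, with 1 library per point; the FD column is shaded sand and the FF column green. On the left, comp3957_c0, comp14349_c0 and comp7027_c0 are high in all buds, FD, FF and FL, and low in FI, HD, FW, HW and HS. On the right, comp13868_c0 and comp6276_c0 dip below every bud in FD and, less far, in FF.

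Most members were scarce. The median of the mean score over the 3 digit libraries was 38.0 for the 105 higher components and 36.7 for the 157 lower ones, against 196 for all components tested. The mean score was under 100 for 89 of the higher and 123 of the lower components, and at least 500 for 6 and 9 of them. Both ratios had a 95% interval clear of 1 for 86 of the 105 higher components and 107 of the 157 lower ones. Over all components tested, with no minimum fold, intervals lay clear of 1 on the same side for 819 above (5.06%) and 1345 below (8.31%), of which all but 86 and 107 differed by less than 2-fold from at least 1 short-digit library.

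The share of components past 2-fold was 0.648% above both short digits and 0.969% below. At 1.5-fold it was 3.16% (511 components) above and 3.69% (597) below, and with any difference 31.5% and 36.7%. At the edge of the 2-fold rule, the last component counted as higher scored 103 in FD, 51 in FI and 33 in HD, and the first left out scored 1444, 726 and 636. The last counted as lower scored 14, 45 and 29, and the first left out 383, 765 and 814. When digit I was set against the other digit libraries by the same rule, it was at least 2-fold above both in 91 components (0.562%) and below both in 277 (1.71%). Hindlimb digits were above both in 72 (0.445%) and below both in 137 (0.846%). These counts share libraries and FI is the shallowest, so no rank among the 3 libraries was drawn.

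A fit across all components took FI and HD as a pair of short-digit samples and measured their spread. It used limma on log2(score + 1), with the prior variance following the mean, and assumed that the lone FD library varies as they do. It called 0 of 16194 components at an adjusted p under 0.05 (0%). The share of components with an unadjusted p under 0.05 stayed below 0.05, the share due where nothing differs. The scores of FI and HD were equal in 243 components, which gives a spread of 0, and leaving these out raised the count to 204, with 81 higher and 123 lower. Without the ties, the fit gave each component the spread of the trend and set aside its own spread between FI and HD. Neither count is therefore a measure of how many components differ.

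With robust variance shrinkage, which limits the weight of such extremes, limma called 6 components (0.0371%). All these fits use the FD, FI and HD scores that the 2-fold rule used, with FD as a lone library and different parts as the short-digit samples, so their calls describe the same values and are no separate support for a member. Component comp3957_c0 differed by 4.03 on the log2 scale (SE 0.37, limma adjusted p = 0.014), comp6637_c0 by 1.58 (SE 0.19, limma adjusted p = 0.040) and comp9041_c0 by -1.98 (SE 0.23, limma adjusted p = 0.040). The other 3 are named because they were called. Component comp879_c0 was higher in FD, at 6346 against 3117 in FI and 2736 in HD. Component comp758_c0 was lower, at 1033 against 2542 and 2301, as was comp4564_c0, at 54 against 288 and 475. limma voom on recovered reads called 8, of which 7 were higher in FD. Of these, 4 were the calls comp3957_c0, comp6637_c0, comp879_c0 and comp758_c0, and comp7027_c0 was a further one (log2 difference 3.54, SE 0.47, limma voom adjusted p = 0.036). The remaining 3 are named because voom called them. Component comp2108_c0 scored 1143 in FD, 436 in FI and 322 in HD. The forelimb buds lay above its FD score, at 1817, 5828 and 5340, and the hindlimb buds below it, at 707, 902 and 927. Component comp3911_c0 scored 348, 90 and 57 in FD, FI and HD, and 973 in FF against 238 in FW and 87 in HW. Component comp4506_c0 scored 1677, 816 and 744 in FD, FI and HD, with 1726 in FF against 1297 and 810. With robust shrinkage comp14349_c0, whose short-digit scores of 19 and 3 lay far apart, did not pass (limma adjusted p = 0.42).

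In the tissue between the digits, most members differed in the same direction as in the digits. FF, FW and HW took no part in choosing them. FF was above both FW and HW in 67 of the 105 higher components (63.8%), against 28.0% of all components tested, and below both in 13 (12.4%), against 34.5%. Of the components with a mean score of 20 to 100, FF was above both in 28.0% and below both in 35.1%. Among the 157 lower components FF was below both in 106 (67.5%) and above both in 10 (6.37%). The median difference of FF from the mean of FW and HW was 0.58 on the log2(score + 1) scale for the higher components, -0.68 for the lower and -0.02 for all tested. Across all 16194 components, the digit difference and the interdigital difference had a Pearson r of 0.260, with no library in common. Components are not independent replicates, and parts of 1 embryo may be in both.

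At 2-fold in both tissues, 17 of the 105 higher components (16.2%) were shared with FF, where 0.438% of all tested, and 0.991% of those with a mean score of 20 to 100, stood that far above both FW and HW. Of the lower ones 38 of 157 (24.2%) were shared, where 1.98% of all tested and 3.95% of the scarce ones stood that far below. Ranked by the smaller of the differences of FF from FW and from HW, the first on the high side were comp7027_c0, with 415 in FF against 17 and 14, and comp3957_c0, with 375 against 16 and 19. On the low side comp16143_c0 scored 0 in FF, 82 in FW and 11 in HW, and 2 in FD, 143 in FI and 9 in HD. Its difference from HD was within counting error, at 4.92-fold (0.551 to 233) on 1 read in FD. Component comp4715_c0 scored 2 in FF, 56 in FW and 24 in HW, and 21, 90 and 57 in FD, FI and HD.

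**Figure D3:**
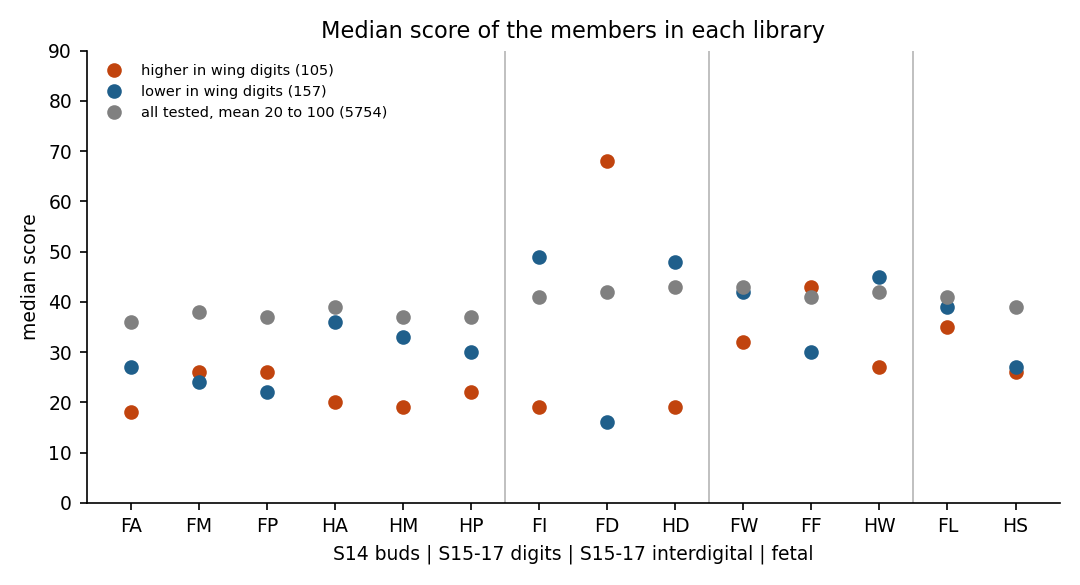
Median score in each library of the 105 components higher in wing digits, the 157 lower, and the 5754 tested components with a mean score of 20 to 100. The high FD point at 68.0 and the low one at 16.0 follow from how members were chosen; among libraries not used for the choice, FF lies at 43.0 against 32.0 in FW and 27.0 in HW for the higher components, and at 30.0 against 42.0 and 45.0 for the lower.

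Other members differed between digits while the 3 interdigital libraries lay within 1.5-fold of FF. Component comp14246_c0 scored 75 in FD, 21 in FI and 19 in HD, and 18 in FF, 17 in FW and 16 in HW. It was nearly missing from the buds, at 0 to 10, and reached 380 in metacarpals and 185 in metatarsals. Component comp5452_c0 scored 50, 13 and 14 in FD, FI and HD, and 40, 45 and 41 in FF, FW and HW, so FD matched the interdigital level and the short digits lay below it. On the low side comp22045_c0 scored 5 in FD, 36 in FI and 24 in HD with 20, 27 and 23 between the digits, and comp20838_c0 scored 7, 26 and 29 with 18, 13 and 14. Each of these low values rested on 3 or 4 reads in FD.

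Whether a wing difference was larger in digits than in interdigital tissue was tested with an interaction term in limma over the 6 libraries. It called 0 of 16194 components (0%), with a smallest adjusted p of 0.12 and 280 at an unadjusted p under 0.05. Without any 1 of the 4 libraries of short parts the count was 0 as well, with smallest adjusted p-values of 0.55 to 1.0 in limma, fits too small to bear on stability. For comp14246_c0 the interaction was 1.74 on the log2 scale (SE 0.78, limma adjusted p = 1.0) and for comp5452_c0 it was 1.92 (SE 0.71, limma adjusted p = 1.0). Here too the share at an unadjusted p under 0.05 stayed below 0.05. On simulated reads this test missed the 2-fold changes and many of the 4-fold ones. The changed components there were drawn from those with a mean score of at least 50, which most members do not reach. The count of this test therefore does not bound how many members differ in digits alone, and no member is shown to do so.

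Interdigital tissue in the FD dissection could raise scores there, so lists of tissue-biased components were drawn without FD and FF. Only 4 components were at least 4-fold higher in interdigital tissue than in digits on both the thumb side and the foot. Their summed score was 48 in FD, 17 in FI and 26 in HD, against 462 in FW, 195 in HW and 97 in FF, and none was at 0 in FD. Another 8 were at least 4-fold higher in digits, with sums of 691 in FD, 1423 in FI and 830 in HD against 85 to 234 between digits. Of these 8, 2 were among the components at least 2-fold lower in FD, where 0.969% of all tested were. None of the 4 was among the higher ones, where 0.648% of all tested were. The choice holds FI and HD low in the first list and high in the second, while FD took no part in it. The order of FD and the short digits in these sums is therefore favoured by the choice and cannot show tissue makeup. FI and HD also chose the members, which favours lower components among the 8. The part that tissue makeup has in the results was not tested. In bulk tissue, fewer cells of a type and less RNA per cell cannot be told apart.

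The thumb arises from the anterior side of the limb, so the members were followed back to the S14 buds, whose libraries took no part in choosing them. FA was at least 2-fold below both FM and FP in 31 of the 105 higher components (29.5%), against 3.13% of all tested and 6.64% of those with a mean score of 20 to 100. FA was at least 2-fold above both in 4 of them (3.81%), against 1.09% and 2.33%. The higher components thus leaned away from the anterior forelimb bud, with a median difference of FA from the mean of FM and FP of -0.26 on the log2(score + 1) scale against 0.03 for all tested. In the hindlimb bud HA was at least 2-fold below both HM and HP in 7 (6.67%) and above both in 3 (2.86%), where the shares were 0.722% and 0.636% of all tested and 1.77% and 1.51% of those with a mean score of 20 to 100.

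Among the 157 lower components, FA was at least 2-fold above FM and FP in 18 (11.5%), against 1.09% of all tested and 2.33% of those with a mean score of 20 to 100. FA was at least 2-fold below both in 13 (8.28%), against 3.13% and 6.64%. The share above was thus further from its background than the share below, with a median difference of 0.03, as over all tested. An example, chosen after its values were seen, is comp13958_c0. It scored 433 in FA, 15 in FM and 21 in FP, then 500 in FI, 43 in FD and 170 in HD. In the hindlimb buds it scored 179, 83 and 61 from anterior to posterior. The members also differed by limb in the buds. Forelimb buds were above hindlimb buds, by mean log2(score + 1), in 75 of 105 higher components (71.4%) and in 55 of 157 lower ones (35.0%), against 46.8% of all tested and 48.2% of those with a mean score of 20 to 100. Across all components tested, the digit difference and the bud limb difference had a Pearson r of 0.237, also with no library in common.

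**Figure D4:**
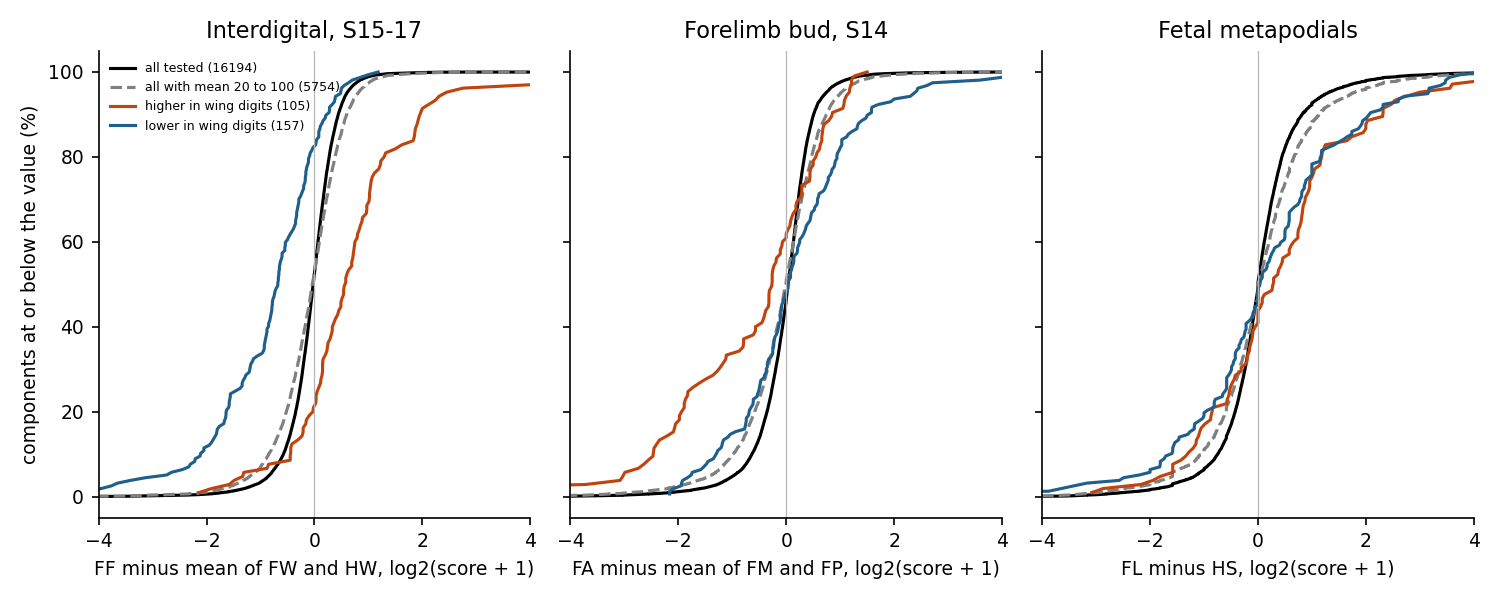
Cumulative share of components by their log2(score + 1) difference in 3 sets of libraries that did not choose the members: FF against FW and HW, FA against FM and FP, and FL against HS. Each curve is 1 list; axes end at -4 and 4, and values beyond them are not drawn. The interdigital curves of the higher and lower lists part to opposite sides of all tested, the bud curve of the higher list has a long left arm, and the fetal curves of both lists lie close together.

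Levels in the buds give the S14 level from which the later parts depart, as a description, since FD, FI and HD chose the members. FD exceeded all 6 buds in 75 of the 105 higher components (71.4%), against 26.4% of all tested and 32.8% of those with a mean score of 20 to 100. Both short digits lay below all buds in 20 of the 105 (19.0%), a share near the 21.7% of all tested but above that of the scarce components, where 691 of 5754 did so. In 12 of the 105 (11.4%) FD lay within the bud range and both short digits below it, against 3.01% and 2.97%. The larger group of higher components thus stood above the bud level in FD, and the components with the widest digit differences, described above, belonged to the smaller one.

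Among the 157 lower components, FD lay below all 6 buds in 65 (41.4%), against 30.1% of all tested and 19.2% of the scarce ones. Both short digits lay above all buds in 73 (46.5%), against 18.7% and 19.8%. In 44 (28.0%) FD lay within the bud range with both short digits above it, against 3.77% and 3.61%. The lower components thus held both short-digit levels above the buds and FD levels below them, in like numbers. In both lists the choice of members on FD, FI and HD itself favours such shares, so their excess over all tested is only a description.

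Farthest above the buds was comp3547_c0, at 0 in all 6 buds and 78 in FD, 28 in FI and 36 in HD. It was listed at 1 or 2 in the interdigital libraries, on 1 read each, and at 1723 in metacarpals and 3094 in metatarsals. FD thus scored 2.82-fold above FI (1.49 to 5.69) and 2.18-fold above HD (1.27 to 3.84). In the fetus the metatarsals stood higher than the metacarpals, on 1924 reads against 1337. Component comp34984_c0 scored 0 to 6 in the buds and 57, 11 and 19 in FD, FI and HD. Farthest below the buds was comp13868_c0, with 72 to 256 in the buds and 10 in FD, 75 in FI and 106 in HD. It also lay below every bud in FW, at 32, and in FF, at 40, against 127 in HW. FI was 7.16-fold (2.98 to 20.8) and HD 10.2-fold (4.42 to 28.8) above FD. Component comp6276_c0 scored 37 to 45 in every bud, 36 in FI, 43 in HD and 35 to 39 in the fetal pair, and 7 in FD and 26 in FF.

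In the fetal skeleton the majority direction of the lower members differed between score cuts, without a test of that difference. Metacarpals scored above metatarsals in 59 of the 105 higher components (56.2%) and in 81 of the 157 lower ones (51.6%), against 49.5% of all tested and 49.6% of those with a mean score of 20 to 100. They scored below in 42 of the higher (40.0%) and 70 of the lower ones (44.6%), against 48.7% and 46.4%. Where the mean score was at least 50, metacarpals were above in 63.9% of the higher components and below in 59.0% of the lower ones, the latter turning the majority. Where it was at least 100, they were above in 12 of 16 higher components and below in 21 of 34 lower ones (61.8%). No share over all components is given at either cut, so these shares have no background beside them. At 2-fold, metacarpals were above in 27 (25.7%) and below in 17 (16.2%) of the higher components, and above in 39 (24.8%) and below in 31 (19.7%) of the lower ones. The matching shares were 7.79% and 6.58% of all tested and 13.0% and 11.1% of the scarce ones. Across all components tested, the digit and fetal differences had a Pearson r of -0.003.

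Single members did carry a wide difference into the fetus. Component comp7027_c0 scored 116 in metacarpals and 3 in metatarsals, 36.1-fold higher (9.70 to 302). Component comp3957_c0 scored 129 and 10, 13.4-fold higher (5.93 to 37.3). The metatarsal values of these 2 components rested on 2 and 6 reads. Component comp18735_c0 scored 63 and 2, but its digit scores of 33 in FD, 15 in FI and 12 in HD were close to the counting error, with FD 2.21-fold above FI (0.890 to 6.22). On the low side comp3599_c0 was listed at 0 in metacarpals and 175 in metatarsals. Component comp8685_c0 scored 110 in FD, 299 in FI and 338 in HD, and 3 in metacarpals and 58 in metatarsals, so that metatarsals were 22.5-fold higher (5.78 to 193).

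Members shared with the wing interdigital library were set beside the rest in buds and fetus, without a test of the difference. Of the 17 higher components at least 2-fold up in FF too, 11 (64.7%) had FA at least 2-fold below FM and FP, against 20 of the remaining 88 (22.7%), 3.13% of all tested and 6.64% of the scarce ones. In 8 of the 17 (47.1%) metacarpals were at least 2-fold above metatarsals and in none below, while the other 88 had 19 above (21.6%) and 17 below (19.3%). The shares were 7.79% above and 6.58% below for all tested, and 13.0% and 11.1% for the scarce ones. Of the 38 lower components shared with FF, 10 (26.3%) had FA at least 2-fold above FM and FP, against 8 of 119 (6.72%), 1.09% of all tested and 2.33% of the scarce ones. Metacarpals were at least 2-fold below metatarsals in 14 of the 38 (36.8%) and above in 7 (18.4%), against 17 (14.3%) and 32 (26.9%) of the 119. The shared members were less scarce, with a median mean score of 64.0 for the 17 and 59.5 for the 38, and the part of the score level in these shares was not tested. Pieces of 1 transcript may count more than once in such short lists, which could raise a share and was not checked.

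**Figure D5:**
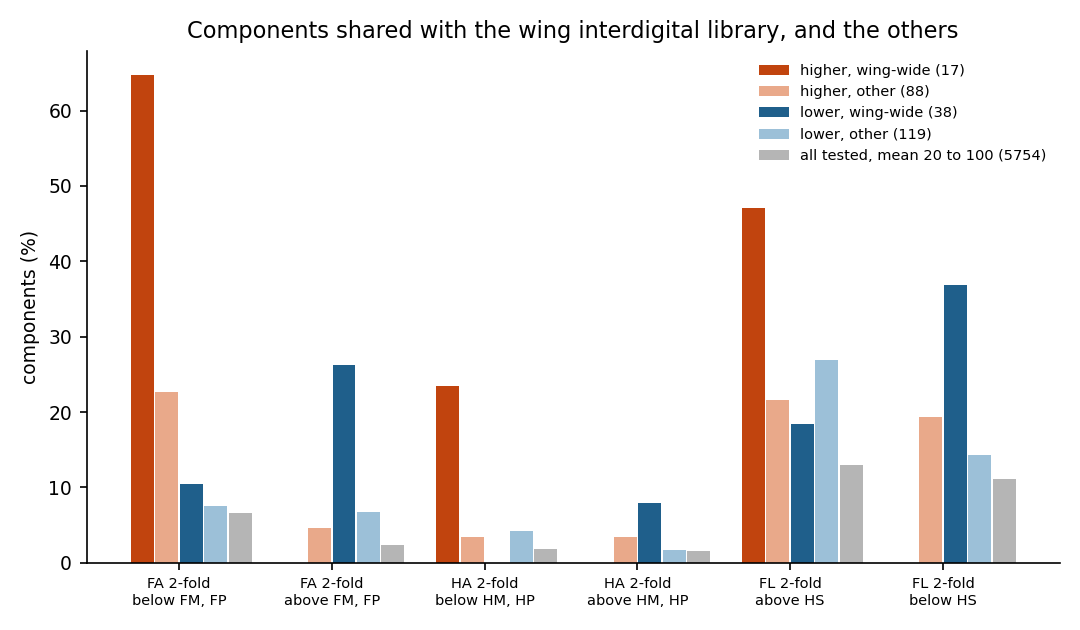
Share of components, in percent, with a 2-fold difference along the forelimb bud, along the hindlimb bud or between fetal metapodials; bars give members also 2-fold apart in FF, the wing interdigital library, called wing-wide in the key (17 higher, 38 lower), the other members (88 and 119) and the 5754 tested components with a mean score of 20 to 100. The bar for FA at least 2-fold below FM and FP reaches 64.7% in the 17 shared higher components against 22.7% in the other higher ones, and bars missing from a group are at 0.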

How the data were processed

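Messenger RNA of 14 dissected autopod parts was sequenced with 1 library per part; per the labels' protocols, libraries came from a TruSeq kit after DNase treatment. Among tools, the submitters' processing notes list CASAVA 1.8, RSEM and edgeR. The authors deposited a score per component and library, a normalized count rounded to a whole number; assembly and build are not given in the sources used here. Reads were recovered from the steps between low scores (1.29 to 2.23 per read; 4550754 to 7648427 reads per library; 99.981% to 100% of nonzero scores equal a whole number of reads after rounding, with steps fitted on scores up to 2000).

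Differences are on log2(score + 1), which understates those of scarce components. Intervals are exact binomial at 95%. Fits used limma 3.58.1 in R 4.3.3 with two-sided tests and Benjamini-Hochberg adjustment over 16194 components, called at 0.05. On simulated reads with known changes, the main fit recovered none of them. The interaction fit recovered none at 2-fold and missed many at 4-fold. Robust shrinkage and voom recovered most at 4-fold but few at 2-fold. The p-values measure only the spread between thumb and foot libraries.

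Members, lists and tests were chosen with earlier results of these data known. Components are named by rank, at most 2 per direction, under 6 questions: widest digit difference, the same at a mean score of at least 500, shared with FF, not shared with FF, widest fetal difference, and farthest beyond the buds. Others were singled out after their values were seen: those a fit called, the fourth past 4-fold, a bud example and the component in the closing section that differed in opposite directions.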

Additional observations from a re-analysis of the deposited data

Results flagged for a closer look

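Component comp12402_c0 was at least 2-fold above both short digits in FD and at least 2-fold below both counterparts in FF, the opposite way in the tissue between the digits. It scored 99 in FD, 41 in FI and 34 in HD, with a smaller difference of 1.25 on the log2(score + 1) scale. Between the digits it scored 7 in FF, 77 in FW and 15 in HW, with a smaller difference of -1.0. The FF value rested on 4 reads, against 11 in HW and 53 in FW. The smaller difference, that from HW, sat at the edge of the 2-fold rule, and no interval is given for it. The interaction in limma was 3.53 (SE 1.18, adjusted p = 1.0), so the reversal did not pass the test of the difference. No other tested component had 2-fold differences of opposite sign in both tissues.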

How the results depend on the processing

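The counts of components at least 2-fold apart stayed within 1.5 times of 105 and 157 under pseudocounts of 0.25 and 5 and both other scalings. A mean score of at least 50 left 36 higher and 61 lower, and no filter gave 7649 and 3873. Against FI alone the counts were 592 and 422, and against HD alone 376 and 353. The fitted count of 0 became 6447 with no filter, of which 6440 had a mean score under 20, 63 when scaled to the upper quartile, 119 when centred on the median, 6 under robust shrinkage and 8 under voom. Leaving out tied components, chosen after seeing the data, gave 204. It stayed 0 under both pseudocounts, at a mean score of at least 50 and with the spread also taken from interdigital libraries (smallest limma adjusted p = 0.084). The interaction count of 0 became 1 under both scalings and robust shrinkage (1, 1 and 1), and was 0 to 0 without any 1 of FI, HD, FW or HW. At 1.5-fold, FF shared the direction of 46.4% of higher and 58.8% of lower components, and at a mean score of at least 50 of 80.3% of lower ones. Metacarpals were below metatarsals in 44.6% of lower components, and in 59.0% at a mean score of at least 50. No share over all components is given at that cut. All 84 values of the 21 components named by rank kept their direction within counting error under the pseudocounts and scalings. Apart from the tied scores, the causes were not tested. No paired analysis was possible because each part has 1 library and the labels carry no replicate numbers. Depth limits the scarce components: both counting intervals lay clear of 1 for 86 of the 105 higher and 107 of the 157 lower ones.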
